A study of Mus musculus with 30 samples.

Results

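The insulin-like growth factor (IGF) genes described here are 9 mouse genes: the ligand genes Igf1 and Igf2, the receptor gene Igf1r, and the binding protein genes Igfbp2, Igfbp3, Igfbp4, Igfbp5, Igfbp6 and Igfbp7. They were taken by symbol from 12393 genes on the array, and their 21 probe sets are among 20380 probe sets with 1 gene symbol. Among a gene's probe sets, the one that gave its values was chosen by its mean log2 value over all 30 arrays, the highest being taken, and the others served as a check. That mean ran from 6.98 for Igfbp6 to 12.18 for Igfbp7 on the log2 intensity scale. A probe set's level also depends on its probes, so levels were compared between groups and never between genes.

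Total RNA of 30 retinas, 1 from each pup, was hybridised in 10 groups of 3. All groups but the normoxia group had oxygen-induced retinopathy (OIR), a model of retinopathy of prematurity in which high oxygen stops retinal vessel growth and the return to room air leaves the retina short of oxygen. OIR pups spent 5 days in 75% oxygen with the nursing mother, starting at postnatal day 7 (P7). In 4 groups the eye was injected at P5, ahead of the oxygen, and in 4 groups at P12, at the return to room air. At each day the injection held 100000 ECFCs (endothelial colony-forming cells) together with 10000 CD34+ cells, 100000 ECFCs alone, 10000 CD34+ cells alone, or saline. The other groups were OIR pups without injection (OIR untreated) and normoxia pups. The labels give no species for the injected cells, and whether their RNA added to the signal was not tested. Every label gives P17 as the stage, whereas the study's design text pairs P5 injection with collection at P12. In comparisons of P5 groups with other groups, injection day and collection day therefore cannot be told apart.

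IGF1 and IGF2 act through the IGF1 receptor, a tyrosine kinase that signals through the phosphatidylinositol 3-kinase and Akt arm. In the circulation and in tissue most IGF is held by binding proteins, which carry the ligand, keep it from the receptor or hand it over when a protease cuts them. In the retina, IGF1 permits vessel growth driven by VEGF, low serum IGF1 goes with retinopathy in preterm infants, and Igfbp3 is a known hypoxia-responsive gene that limits vessel loss in the mouse OIR model. IGFBP7 binds IGF weakly and is best known as a protein of vessel basement membranes.

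The promoters of the 3 binding protein genes with the largest differences between OIR untreated and normoxia retinas are shown to set their sequence beside their shared direction. Each run is the 250 bases upstream of the RefSeq start (GRCm38.p6), written 5′ to 3′ on the gene's strand. Capitals mark ACGTG and GCGTG, core letters of the hypoxia response element, on either strand, so that CACGT and CACGC are the same letters on the opposite strand, and CACGTG holds ACGTG on both strands.
Igfbp3 chr11:7213924-7214173, minus strand: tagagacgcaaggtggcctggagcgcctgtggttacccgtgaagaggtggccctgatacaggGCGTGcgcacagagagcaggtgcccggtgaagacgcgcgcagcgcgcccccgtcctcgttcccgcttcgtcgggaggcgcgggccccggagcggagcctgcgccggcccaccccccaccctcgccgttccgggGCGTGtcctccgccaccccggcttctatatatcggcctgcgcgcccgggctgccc
Igfbp5 chr1:72874866-72875115, minus strand: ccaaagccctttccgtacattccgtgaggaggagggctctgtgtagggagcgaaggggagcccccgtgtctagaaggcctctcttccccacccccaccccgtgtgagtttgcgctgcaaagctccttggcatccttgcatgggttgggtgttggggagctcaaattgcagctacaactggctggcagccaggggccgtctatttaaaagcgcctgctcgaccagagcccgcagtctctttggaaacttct
Igfbp7 chr5:77408046-77408295, minus strand: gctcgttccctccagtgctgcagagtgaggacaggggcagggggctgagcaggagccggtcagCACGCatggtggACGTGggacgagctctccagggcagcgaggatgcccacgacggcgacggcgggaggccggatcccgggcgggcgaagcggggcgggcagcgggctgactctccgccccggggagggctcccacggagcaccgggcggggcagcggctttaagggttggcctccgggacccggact
The Igfbp3 window held GCGTG at 2 places, the Igfbp7 window held ACGTG and GCGTG once each, and the Igfbp5 window held neither. Of 32851 promoter windows of this length, 16.6% held ACGTG, 28.2% held GCGTG and 38.6% held either. All 9 genes had at least 1 window, 13 windows in all, of which 6 held either motif. Besides Igfbp3 and Igfbp7, these were windows of Igf1, Igf2, Igf1r (GCGTG at 3 places) and Igfbp2 (2 matches of each motif). None of those other genes was called between OIR untreated and normoxia retinas. A match describes letters and is not a site, and the lack of one concerns this window alone.

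The arrays were alike in scale, with medians from 8.16 to 8.49 and correlations between replicates of a group from 0.961 to 0.997. Rod photoreceptor markers, the defining genes of the labelled tissue, averaged 13.08 to 13.46 on every array. Hybridisation control probe sets averaged 13.23 to 13.65 on the 12 arrays of the P12 injection groups and 11.86 to 12.96 on the other 18. Lens markers averaged 7.55 to 14.11 on the P5 arrays and 5.996 to 8.97 elsewhere. P5 CD34 replicate 1 stood apart from its group, with lens markers at 7.55, microglia markers at 9.89 and ganglion cell markers at 9.43. The P5 CD34 arrays averaged 8.84 to 9.17 for stroma and meninges markers, above the 7.13 to 8.58 of all other arrays. The tissue is bulk, so fewer cells of a type and less RNA per cell cannot be told apart, and the number of arrays limits the precision. The values carry no detection call, so whether the lowest ones were above background is not known.

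Igfbp3, Igfbp5 and Igfbp7 were low in normoxia retinas and high in the OIR retinas without cells that were untreated or injected at P12. Igfbp2, Igfbp4 and Igfbp6 were highest in the P5 CD34 group. By its highest probe set, neither ligand gene was called in any of 23 contrasts on all arrays without weights or covariates.

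**Figure D1:**
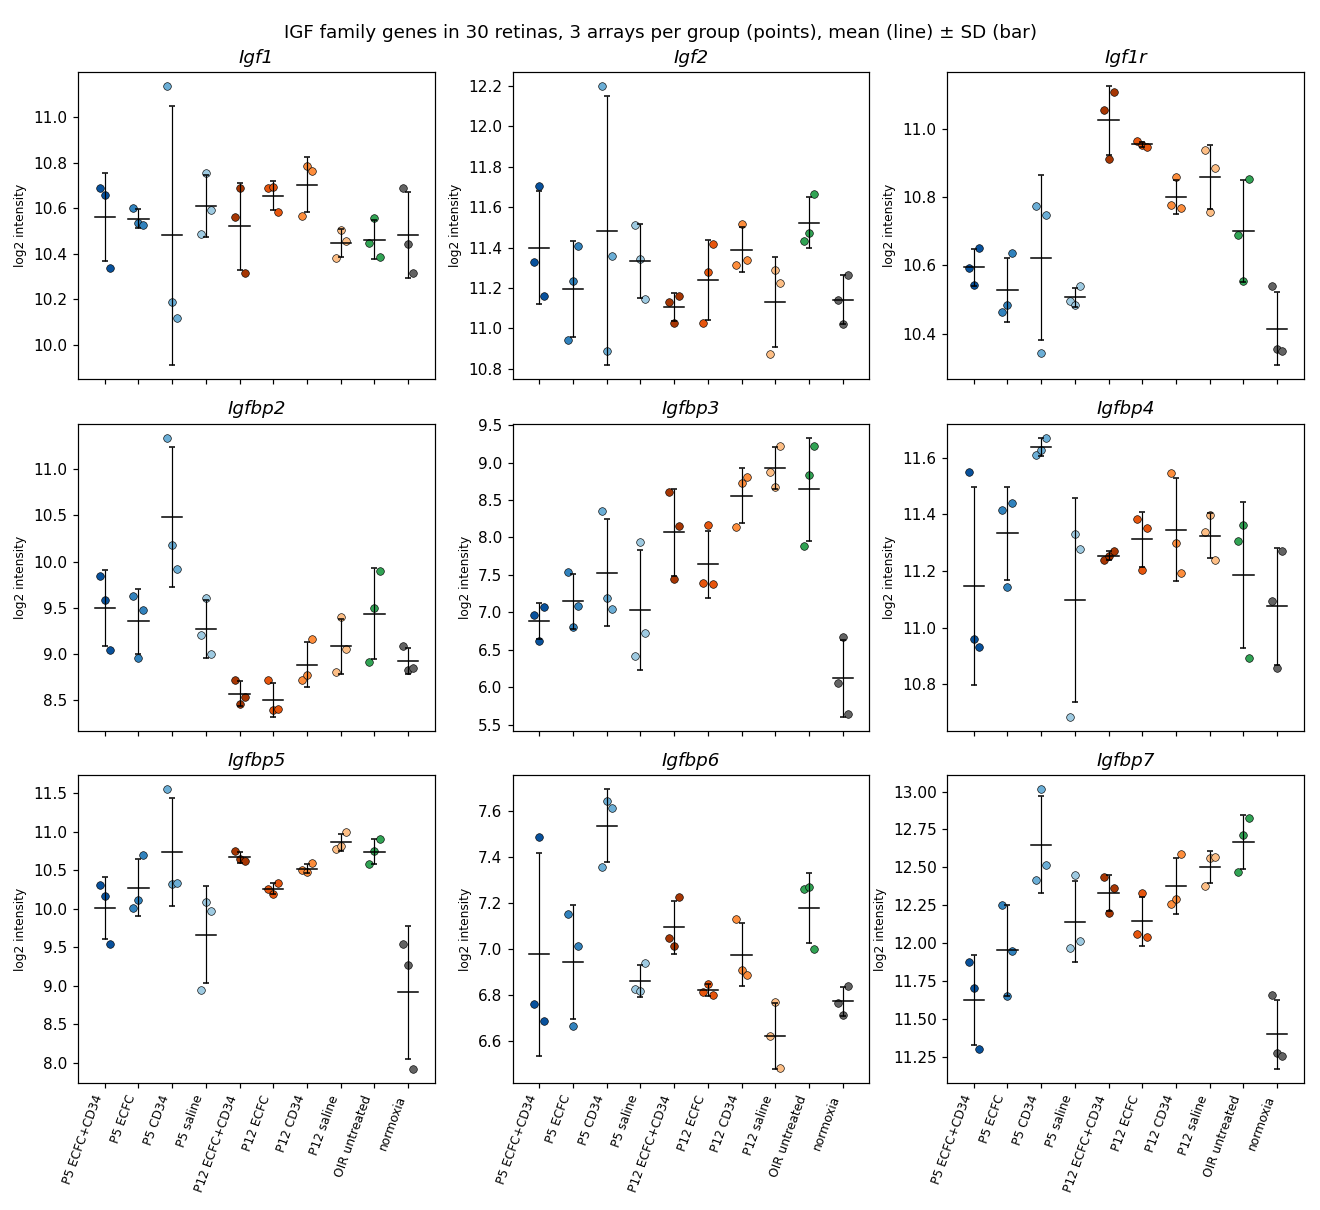
Log2 intensity (y axis, a scale of its own in each panel) of the 9 IGF genes in the 10 groups (x axis). Points are arrays, lines are group means and bars are ± SD (n = 3). Igfbp3 lies at 5.64 to 6.67 in normoxia retinas, a range that 2 of the 12 P5 arrays and none of the P12 or OIR untreated arrays share.

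Igf1, by its highest probe set, ran from 10.12 to 11.14 over the 30 arrays, and its group means spanned 0.26. P5 CD34 was its widest group, at 11.14, 10.19 and 10.12, and held both ends of that range. Groups next to each other in the order of Igf1 means overlapped in every case. P5 CD34 differed from P5 saline by -0.13 ± 0.17 (adjusted p = 0.74 in limma), but without its replicate 1 by -0.46 ± 0.12 (adjusted p = 0.028), so this 1 array decided the Igf1 value. With array weights the P5 CD34 arrays weighed 0.20, 0.46 and 1.58, so that fit too gave its replicate 1 little part. There P5 CD34 differed from P5 saline by -0.42 ± 0.13 (adjusted p = 0.022), and P5 ECFC with CD34 from P5 CD34 by 0.42 ± 0.12 (adjusted p = 0.012). With the hybridisation control covariate Igf1 differed by 0.45 ± 0.15 (adjusted p = 0.027) between P12 saline and normoxia retinas and by 0.59 ± 0.16 (adjusted p = 0.021) between P12 saline and OIR untreated retinas. In that fit P5 saline differed from P12 saline by -0.62 ± 0.19 (adjusted p = 0.018). Without the covariate these limma differences were -0.04 ± 0.17 (adjusted p = 0.91), -0.015 ± 0.17 (adjusted p = 0.96) and 0.16 ± 0.17 (adjusted p = 0.54), in that order. Controls on the P12 arrays lay above those on all other arrays, so in this fit the covariate and the P12 injection groups cannot be separated.

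Igf2, the fetal growth ligand, spanned 0.42 between group means of its highest probe set. It stood at 11.43, 11.47 and 11.67 in OIR untreated retinas, against 11.14, 11.02 and 11.26 in normoxia retinas. These arrays did not overlap, yet the difference of 0.38 ± 0.21 (SE) had an adjusted p of 0.33. Its second probe set gave 0.73 ± 0.24 and an adjusted p of 0.083 in limma over all probe sets. The group means of that set lay further apart, from 9.42 in P12 ECFC to 10.55 in P5 CD34 retinas. Of the further Igf1 probe sets, 1 was lower in P5 saline than in P12 saline retinas, by -0.54 ± 0.17 (adjusted p = 0.022), whereas the highest set gave 0.16 ± 0.17.

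The receptor gene Igf1r was highest in the P12 groups. Its arrays read 10.94, 10.76 and 10.88 in P12 saline retinas, against 10.54, 10.35 and 10.35 in normoxia retinas. All P12 saline arrays lay above all normoxia arrays. OIR untreated retinas read 10.69, 10.55 and 10.85, and P5 saline retinas 10.50, 10.48 and 10.54. From high to low the group means ran from 11.03 in P12 ECFC with CD34 through 10.70 in OIR untreated to 10.41 in normoxia. Neighbours in that order overlapped in every case except P12 ECFC, whose arrays at 10.96, 10.95 and 10.95 all lay above P12 saline. The second Igf1r probe set correlated with the first at only 0.39 over the 30 arrays.

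The first question was what OIR itself did to these genes. Igfbp3 was 5.76-fold, Igfbp5 3.55-fold and Igfbp7 2.41-fold higher in OIR untreated than in normoxia retinas, and no IGF gene was called lower. With limma, 3 of the 9 genes passed an adjusted p of 0.05, adjusted over all 12393 genes, where 4.56% of all genes did and 3.59% were called higher. The median difference over the 9 genes was 0.40, against -0.02 over all genes. In 6 of the 9 the arrays of the groups did not overlap, which held for 26.2% of all genes.

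Igfbp3, the main carrier of IGF in serum, read 7.88, 8.83 and 9.22 in OIR untreated retinas, against 6.06, 6.67 and 5.64 in normoxia retinas. Every OIR array lay above every normoxia array, and the groups differed by 2.53 ± 0.40 (SE, adjusted p = 0.00035 in limma). Igfbp5, which binds IGF and extracellular matrix, read 10.58, 10.74 and 10.90 in OIR untreated retinas, against 9.55, 9.27 and 7.92 in normoxia retinas. The OIR arrays were tight and the normoxia arrays wide, with replicate 3 lowest, and the difference was 1.83 ± 0.34 (adjusted p = 0.0018 in limma). Igfbp7 read 12.47, 12.71 and 12.82 in OIR untreated retinas, against 11.66, 11.28 and 11.26 in normoxia retinas. The groups were well separated, and the difference was 1.27 ± 0.18 (adjusted p = 7.9e-05 in limma). The calls on all 3 genes passed in every alternative run for them.

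Igfbp2 and Igfbp6 did not pass, at 0.52 ± 0.29 (adjusted p = 0.33) and 0.40 ± 0.15 (adjusted p = 0.14). Igf1r gave 0.28 ± 0.10 (adjusted p = 0.1) and Igfbp4 0.11 ± 0.17 (adjusted p = 0.74). The averages of the marker lists for 5 cell types were also higher in OIR untreated retinas. Endothelial markers averaged 9.04 to 9.13 in OIR untreated retinas, against 8.16 to 8.25 in normoxia retinas, and 7 of 13 measured markers were called higher. Pericyte and mural markers averaged 8.88 to 9.09 in OIR untreated retinas, against 8.04 to 8.09 in normoxia retinas, with 9 of 12 called higher. Microglia markers averaged 8.05 to 8.19 in OIR untreated retinas, against 7.16 to 7.25 in normoxia retinas, with 4 of 12 called higher. Astrocyte markers averaged 8.58 to 9.14 in OIR untreated retinas, against 7.81 to 8.07 in normoxia retinas, with 1 of 4 called higher. Stroma and meninges markers averaged 7.57 to 8.40 in OIR untreated retinas, against 7.13 to 7.56 in normoxia retinas, with 4 of 13 called higher. The part of these cell types in the binding protein differences was not tested.

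The same 3 genes were followed after saline injected at P12. Igfbp3 read 8.87, 8.67 and 9.23, Igfbp5 read 10.78, 10.81 and 10.99, and Igfbp7 read 12.38, 12.56 and 12.57 in P12 saline retinas. Against OIR untreated retinas these arrays overlapped for each gene, with differences of 0.28 ± 0.40, 0.12 ± 0.34 and -0.17 ± 0.18. The 95% interval of the Igfbp3 difference ran from -0.56 to 1.11. With the hybridisation control covariate, which cannot be separated from the P12 groups, the Igfbp5 difference was 1.14 ± 0.37 (adjusted p = 0.045). Igfbp6, a binding protein that prefers IGF2, was the 1 of 9 genes called in this comparison, where 21.3% of all genes were called. It fell by 0.55 ± 0.15 (adjusted p = 0.012 in limma), at 6.62, 6.77 and 6.48 in P12 saline retinas, against 7.26, 7.27 and 7.00 in OIR untreated retinas. The call was lost with median centring (-0.44, adjusted p = 0.063), without P12 saline replicate 3 (adjusted p = 0.064) and without OIR untreated replicate 2 (adjusted p = 0.055), which left 0 of 9 called.

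Set against the same normoxia arrays, P12 saline retinas had 4 of 9 genes called higher, where 27.5% of all genes were called and 9.93% called higher. Igfbp3 rose by 2.80 ± 0.40 (adjusted p = 2.2e-05), Igfbp5 by 1.95 ± 0.34 (adjusted p = 0.00017) and Igfbp7 by 1.10 ± 0.18 (adjusted p = 7.9e-05), all in limma. The fourth, Igf1r, rose by 0.45 ± 0.10 (adjusted p = 0.0016 in limma). The calls on these 4 genes passed in every alternative run, none of which used a further probe set alone. The second Igf1r set gave 0.28 ± 0.15 (adjusted p = 0.17) and the second Igfbp5 set 0.87 ± 0.21 (adjusted p = 0.0036). The other Igfbp7 sets gave 0.72 ± 0.18 (adjusted p = 0.0046) and 0.21 ± 0.13 (adjusted p = 0.26), all in limma over all probe sets. The hybridisation controls also differed between these groups. The 4 calls also passed with them as a covariate, but the controls do not overlap between P12 and other arrays. That fit therefore cannot separate the controls from the groups. This comparison and the one of OIR untreated retinas share the normoxia arrays and are not independent.

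**Figure D2:**
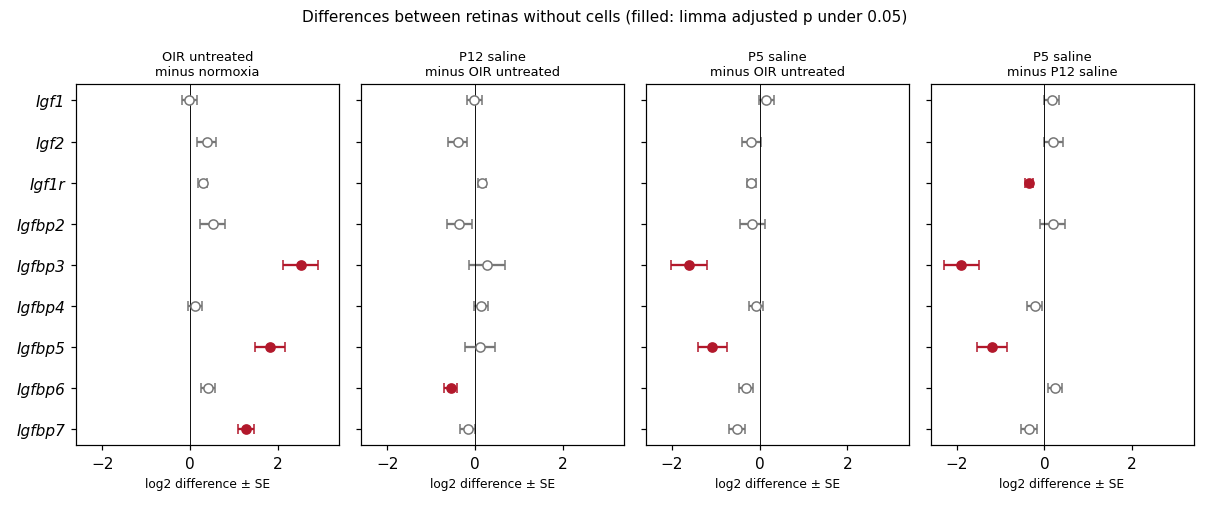
Log2 differences ± SE (x axis) of the 9 genes (rows) in 4 comparisons of retinas without cells, from limma on 3 arrays per group. Filled points passed an adjusted p of 0.05: Igfbp3, Igfbp5 and Igfbp7 are right of 0 for OIR untreated minus normoxia, and Igfbp3 and Igfbp5 left of 0 in both comparisons of P5 saline.

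Retinas given saline at P5 showed lower Igfbp3 and Igfbp5 than the OIR retinas without cells of either other group. Igfbp3 read 6.42, 7.93 and 6.73 in P5 saline retinas, and Igfbp5 read 8.94, 10.09 and 9.96. Replicate 2 was the highest P5 saline array for both genes, and for Igfbp3 it lay above the lowest OIR untreated array. Against OIR untreated retinas, 2 of 9 genes were called, both lower, where 8.69% of all genes were called and 4.88% called lower. Igfbp3 fell by 1.62 ± 0.40 (adjusted p = 0.015 in limma) and Igfbp5 by 1.08 ± 0.34 (adjusted p = 0.04996 in limma). Neither call was firm: without P5 saline replicate 1 the differences were -1.31 (adjusted p = 0.0995) and -0.71 (adjusted p = 0.30), and 0 genes were called. Leaving out OIR untreated replicate 2 or 3 also left 0 called, leaving out replicate 1 left 1, and a fit on these 6 arrays alone left 0.

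Against P12 saline retinas, P5 saline retinas had 3 of 9 genes called lower, where 27.7% of all genes were called and 8.57% called lower. Igfbp3 fell by 1.90 ± 0.40 (adjusted p = 0.0011), Igfbp5 by 1.20 ± 0.34 (adjusted p = 0.010) and Igf1r by 0.35 ± 0.10 (adjusted p = 0.0089), all in limma. All P5 saline arrays of each gene lay below all P12 saline arrays. Without P5 saline replicate 1 Igfbp5 differed by -0.83 (adjusted p = 0.082). Lens markers averaged 10.95 to 13.83 in P5 saline retinas, against 6.07 to 6.22 in P12 saline retinas, and with the lens list as a covariate 1 of the 9 genes was called, Igfbp7 (-0.87, adjusted p = 0.018). In that fit Igfbp3 gave -1.29 (adjusted p = 0.15), Igfbp5 -0.63 (adjusted p = 0.41) and Igf1r -0.26 (adjusted p = 0.24). Igf1r also missed with the mean of its probe sets (-0.29, adjusted p = 0.068) and with the hybridisation control covariate (-0.41, adjusted p = 0.055).

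Against normoxia retinas, Igfbp7 was the 1 gene of 9 called in P5 saline retinas, where 8.1% of all genes were called. It read 11.97, 12.45 and 12.01 in P5 saline retinas, all above the normoxia arrays, and was higher by 0.74 ± 0.18 (adjusted p = 0.012 in limma). The other Igfbp7 sets did not pass, at 0.06 ± 0.13 (adjusted p = 0.83) and 0.57 ± 0.18 (adjusted p = 0.056) in limma over all probe sets. Igfbp3 gave 0.91 ± 0.40 (adjusted p = 0.18) and Igfbp5 0.75 ± 0.34 (adjusted p = 0.19). Without P5 saline replicate 2 or normoxia replicate 3 the Igfbp7 difference was 0.59 (adjusted p = 0.078) or 0.67 (adjusted p = 0.056), and with the lens covariate 0.33 (adjusted p = 0.36).

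The next question was whether injected cells moved these genes. At P12 no IGF gene was called after any cell injection. Among all genes, 0.0161% were called for ECFCs, 0% for CD34+ cells and 0% for both together. At an unadjusted p under 0.05, 1 of the 9 genes and 16.1% of all genes passed for ECFCs, 1 of 9 and 5.19% for CD34+ cells, and 2 of 9 and 9.89% for both. The cell groups share their saline arrays, so the 3 comparisons are not independent.

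Igfbp3 showed the widest P12 values. It read 8.60, 7.45 and 8.15 after both cell types, 7.39, 8.16 and 7.37 after ECFCs, and 8.14, 8.73 and 8.80 after CD34+ cells. All ECFC arrays and all arrays of both cell types lay below the 3 saline arrays, whereas the CD34 arrays overlapped them. The ECFC difference was -1.28 ± 0.40 (95% interval -2.12 to -0.45, adjusted p = 0.18 in limma). With both cell types it was -0.86 ± 0.40 (-1.69 to -0.02, adjusted p = 0.50), and with CD34+ cells -0.37 ± 0.40 (-1.20 to 0.47, adjusted p = 0.96).

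For ECFCs at P12 the arrays of 7 of 9 genes did not overlap those of saline, where 27.5% of all genes did not. Igfbp2 read 8.71, 8.39 and 8.40 in P12 ECFC retinas, against 8.80, 9.39 and 9.05 in P12 saline retinas, a difference of -0.58 ± 0.29 (adjusted p = 0.32). Igfbp5 read 10.26, 10.19 and 10.33 in P12 ECFC retinas, against 10.78, 10.81 and 10.99 in P12 saline retinas, a difference of -0.60 ± 0.34 (adjusted p = 0.38). When each array was weighted by the inverse of its estimated variance, 4 of the 9 genes were called. These were Igfbp2 (-0.65, adjusted p = 0.026), Igfbp3 (-1.52, adjusted p = 0.0018), Igfbp5 (-0.58, adjusted p = 0.017) and Igfbp7 (-0.45, adjusted p = 0.027). In that fit P12 ECFC replicate 3 weighed several times as much as replicate 1 or 2. The P12 ECFC side of these 4 calls therefore rested mostly on 1 array. Without weights, the second Igfbp5 set gave -0.18 ± 0.21 and the other Igfbp7 sets -0.00078 ± 0.18 and 0.02 ± 0.13, in limma over all probe sets. The 7 separate genes include Igfbp6 (0.20 ± 0.15) and Igf1r (0.10 ± 0.10), both above saline. Igf1 gave 0.21 ± 0.17 (interval -0.15 to 0.57) and Igf2 0.11 ± 0.21 (-0.33 to 0.55).

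Igfbp2, Igfbp4 and Igfbp6, 3 of the 6 binding protein genes, were higher in P5 CD34 than in P5 saline retinas. They were the 3 of 9 genes called, where 8.46% of all genes were called and 3.07% called higher. The median difference was 0.51 over the 9 genes, against -0.03 over all genes. No gene of the 9 was called after ECFCs or after both cell types, and none of the 12393 genes was (0% in each comparison). At an unadjusted p under 0.05, 0 of the 9 and 6.29% of all genes passed after ECFCs, and 1 of 9 and 7.89% after both.

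Igfbp2, a binding protein abundant in the nervous system, read 11.35, 10.18 and 9.92 in P5 CD34 retinas, against 9.20, 9.61 and 8.996 in P5 saline retinas. All CD34 arrays lay above those of every other group, and replicate 1 lay far above the other 2. The difference was 1.21 ± 0.29 (adjusted p = 0.012 in limma). Without P5 CD34 replicate 1 it was 0.78 (adjusted p = 0.081), and without P5 saline replicate 3 it was 1.08 (adjusted p = 0.063).

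Igfbp6 read 7.36, 7.64 and 7.61 in P5 CD34 retinas, against 6.83, 6.82 and 6.94 in P5 saline retinas. The arrays were separate and tight, and the difference was 0.68 ± 0.15 (adjusted p = 0.0086 in limma). Its call held without any single array of either group. Igfbp4, which inhibits IGF action until pregnancy-associated plasma protein A cuts it, read 11.61, 11.63 and 11.67 in P5 CD34 retinas, against 10.69, 11.33 and 11.28 in P5 saline retinas. Saline replicate 1 was the lowest of all 6 arrays, and the difference was 0.54 ± 0.17 (adjusted p = 0.043 in limma). Without that array it was 0.33 (adjusted p = 0.23), and the call was also lost without P5 saline replicate 3 or any CD34 array.

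Igfbp3, Igfbp5 and Igfbp7 missed the threshold. Igfbp3 differed by 0.50 ± 0.40 (adjusted p = 0.51 in limma). Igfbp5 read 11.55, 10.33 and 10.33 in P5 CD34 retinas and differed from P5 saline by 1.07 ± 0.34 (adjusted p = 0.052). It passed with quantile normalization (1.12, adjusted p = 0.033), median centring (1.10, adjusted p = 0.037) and the hybridisation control covariate (1.38, adjusted p = 0.0030). Its second probe set gave 1.11 ± 0.21 (adjusted p = 0.0034 in limma over all probe sets). Igfbp7 read 12.42, 13.02 and 12.51 and differed by 0.51 ± 0.18 (adjusted p = 0.080). The count of 3 became 5, Igfbp5 and Igfbp7 included, without P5 saline replicate 2 and 1, Igfbp6, without P5 saline replicate 3, and no gene was called in a fit on these 6 arrays alone. Markers of other tissue moved with these genes: stroma and meninges markers averaged 8.84 to 9.17 in P5 CD34 retinas, against 7.42 to 8.18 in P5 saline retinas, with 6 of 13 called higher. Pigment epithelium markers averaged 10.16 to 10.50 in P5 CD34 retinas, against 8.46 to 10.08 in P5 saline retinas, with 4 of 11 called higher. All 5 measured ganglion cell markers were called lower. Of all genes, 8.46% were called in either direction in this comparison and 3.07% were called higher. The part of these markers in the result was not tested.

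**Figure D3:**
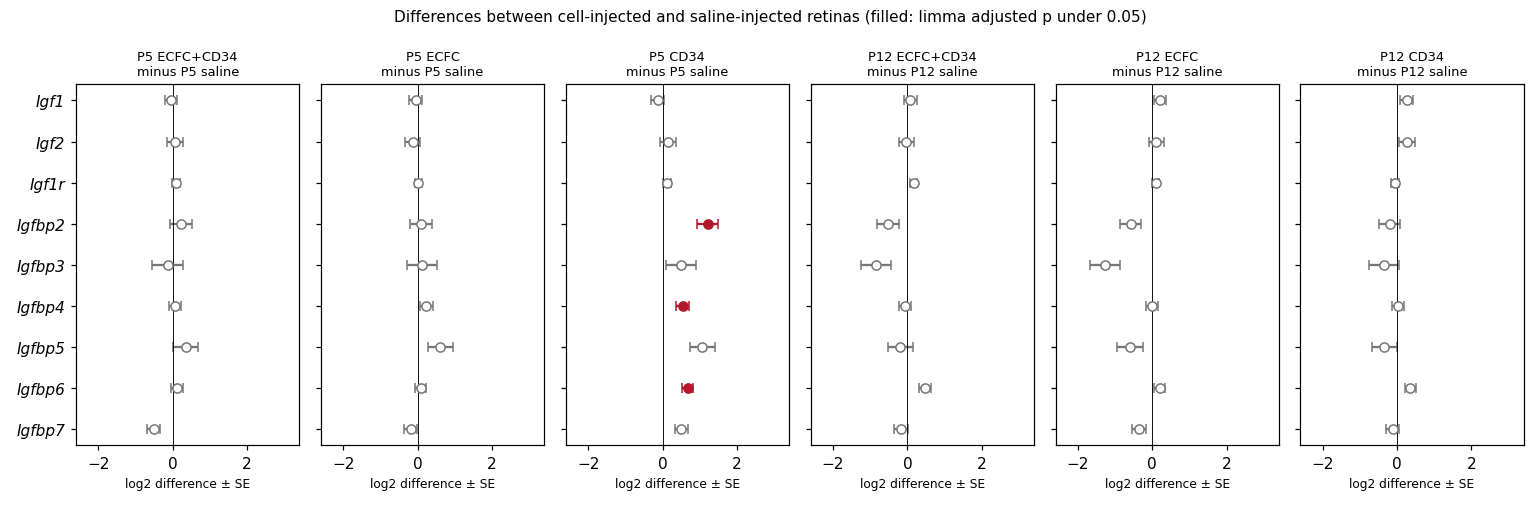
Log2 differences ± SE (x axis) of the 9 genes (rows) between each cell injection and saline given on the same day, from limma on 3 arrays per group. Filled points passed an adjusted p of 0.05, which Igfbp2, Igfbp4 and Igfbp6 did after CD34+ cells at P5.

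The P5 cell groups were also set against one another, with the CD34 arrays shared by both comparisons. P5 ECFC retinas had 3 of 9 genes called lower than P5 CD34 retinas, where 7.08% of all genes were called and 2.79% called lower. Igfbp2 fell by 1.13 ± 0.29 (adjusted p = 0.017), Igfbp6 by 0.59 ± 0.15 (adjusted p = 0.018) and Igfbp7 by 0.70 ± 0.18 (adjusted p = 0.017), all in limma. Without P5 ECFC replicate 2 none of the 9, and in a fit on these groups alone 0, were called. Without P5 CD34 replicate 1 Igfbp2 gave -0.69 (adjusted p = 0.15), without replicate 2 Igfbp7 gave -0.51 (adjusted p = 0.085) and without replicate 3 Igfbp6 gave -0.56 (adjusted p = 0.065).

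P5 retinas with both cell types had the same 3 genes called lower than P5 CD34 retinas, where 7.83% of all genes were called and 3.56% called lower. Igfbp7 read 11.88, 11.70 and 11.30 in the combination, below all CD34 arrays, and fell by 1.02 ± 0.18 (adjusted p = 0.0015 in limma). Igfbp2 fell by 0.99 ± 0.29 (adjusted p = 0.036) and Igfbp6 by 0.56 ± 0.15 (adjusted p = 0.025), both in limma. Without replicate 3 of the combination 1 gene was called, without P5 CD34 replicate 1 Igfbp2 gave -0.56 (adjusted p = 0.26), and a fit on these groups alone called 0. The Igfbp2 call was also lost without replicate 2 of the combination. The Igfbp6 call was lost without replicate 1 of the combination or P5 CD34 replicate 2 or 3, whereas Igfbp7 passed without any single array. Against P5 saline retinas, Igfbp7 differed by -0.52 ± 0.18 (adjusted p = 0.43) in the combination and by 0.51 ± 0.18 (adjusted p = 0.080) in P5 CD34 retinas. Neither of these 2 differences from P5 saline passed in limma over all probe sets. Between P12 ECFC and P12 CD34 retinas limma called 0 of the 9 genes and 0% of all genes, with 1 of 9 and 3.74% of all genes at an unadjusted p under 0.05.

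Whether a cell injection acted differently at P5 and P12 was tested by the difference of its differences from saline. No IGF gene was called for ECFCs (0.0323% of all genes), CD34+ cells (1.9%) or both (0%). At an unadjusted p under 0.05, 2 of the 9 and 11.9% of all genes passed for ECFCs, 4 of 9 and 17% for CD34+ cells, and 0 of 9 and 11.5% for both. The CD34 difference of Igfbp2 was higher at P5 than at P12 by 1.41 ± 0.41 (adjusted p = 0.071 in limma), and that of Igfbp5 by 1.41 ± 0.48 (adjusted p = 0.12). With 1 P5 CD34 array left out, 1 gene was called for CD34+ cells: Igf1 without replicate 1 (-0.72, adjusted p = 0.037), and Igfbp2 without replicate 2 (1.57, adjusted p = 0.032) or 3 (1.69, adjusted p = 0.042). The combination at P5 was set against the sum of its single treatments, where 0 of 9 genes and 0.186% of all genes were called. At an unadjusted p under 0.05, 5 of 9 and 13.4% of all genes passed. Igfbp7 gave -0.83 ± 0.25 (adjusted p = 0.12) and Igfbp4 -0.72 ± 0.23 (adjusted p = 0.15). At P12 none of the 9 genes and 0% of all genes were called, with 0 of 9 and 6.26% of all genes at an unadjusted p under 0.05.

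The further probe sets give a check on several of these differences. For OIR untreated minus normoxia, the second Igfbp5 set gave 1.06 ± 0.21 (adjusted p = 0.0038), and the other Igfbp7 sets gave 0.46 ± 0.13 (adjusted p = 0.052) and 0.58 ± 0.18 (adjusted p = 0.074). For P5 CD34 minus P5 saline, the 5 further Igfbp4 sets ran from 0.12 to 0.64 and 1 passed, at 0.53 ± 0.16 (adjusted p = 0.041). In that comparison the other Igfbp7 sets gave -0.03 ± 0.18 (adjusted p = 0.96) and 0.36 ± 0.13 (adjusted p = 0.10). These come from limma over all 20380 probe sets. Igfbp2, Igfbp3 and Igfbp6 had 1 probe set each, so no such check exists for them.

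**Figure D4:**
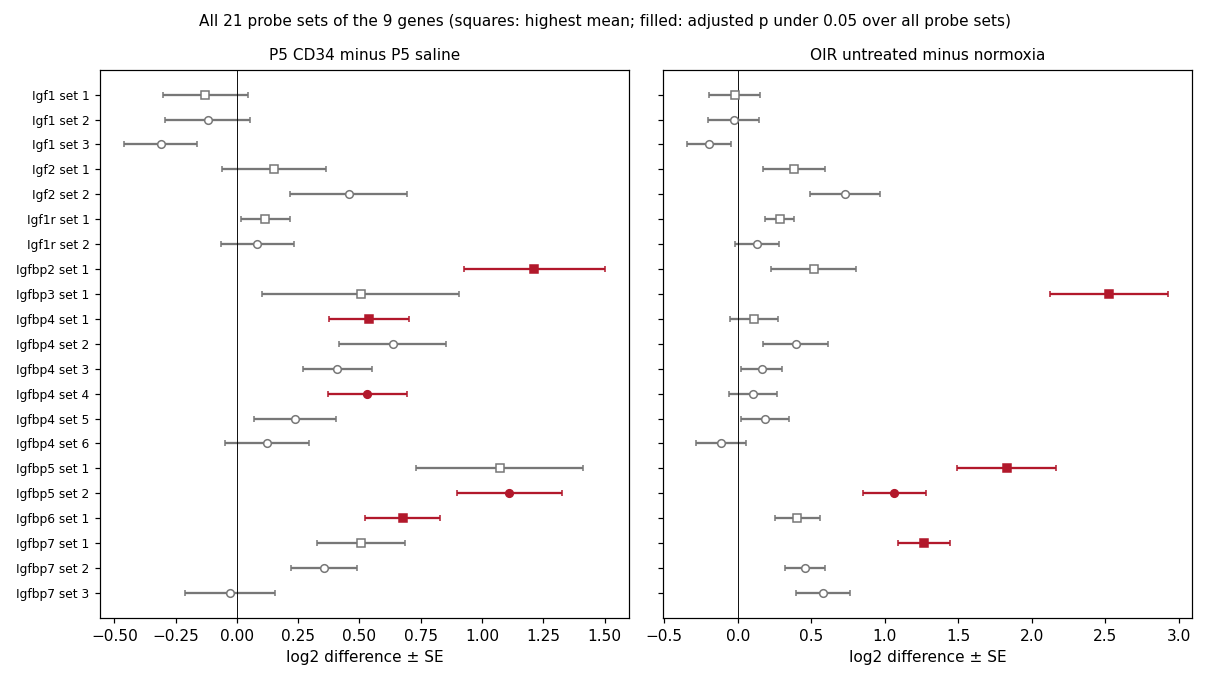
Log2 differences ± SE (x axis) of all 21 probe sets of the 9 genes (rows) for P5 CD34 minus P5 saline (left) and OIR untreated minus normoxia (right). Squares are the sets of the highest mean and filled symbols passed an adjusted p of 0.05 over all probe sets: both Igfbp5 sets are filled on the right, and 1 of 3 Igfbp7 sets.

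Over the 30 arrays Igfbp3, Igfbp5 and Igfbp7 varied together, with correlations of 0.78 for Igfbp3 and Igfbp5, 0.75 for Igfbp3 and Igfbp7 and 0.71 for Igfbp5 and Igfbp7. Igfbp2 was apart from them and correlated best with Igf2, at 0.53. Igfbp2 and Igfbp5 are neighbouring coding genes on chromosome 1 in RefSeq, as are Igfbp1 and Igfbp3 on chromosome 11. Of the second pair, Igfbp1 differed by -0.03 ± 0.20 (adjusted p = 0.94) between OIR untreated and normoxia retinas. All correlations here are descriptions over arrays that share their groups.

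Of all 12393 genes, the 3 most like Igfbp3 were Sat1 (r = 0.93), Stc2 (r = 0.92) and Adm (r = 0.91). Sat1 encodes a polyamine-degrading enzyme, Stc2 an inhibitor of the IGFBP proteases pappalysins, and Adm the vessel peptide adrenomedullin. Vegfa, the hypoxia-induced vessel growth factor, correlated with Igfbp3 at 0.88 and with Igfbp2 at -0.07. For deviations from the group means these correlations were 0.65 and 0.52. Igfbp5 was most like Nrp1 (0.91), Serpinh1 (0.87) and Elk3 (0.87), and Igfbp7 most like Col4a2 (0.91), Rassf3 (0.90) and Acta2 (0.89). Nrp1 encodes a VEGF co-receptor, Col4a2 a basement membrane collagen and Acta2 smooth muscle actin. Igfbp2 was most like the lysosomal genes Ctsd (0.93) and Ifi30 (0.91), with Uap1l1 (0.92) between them. The mean of the stroma and meninges markers correlated with Igfbp2 at 0.73, that of the pigment epithelium markers at 0.69 and that of the microglia markers at 0.68. Over the P5 arrays alone, microglia markers correlated with Igfbp2 at 0.79 and stroma and meninges markers at 0.78. For Igfbp7, the mean of the pericyte and mural markers, Acta2 among them, gave 0.84.

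Igf1r was most like Ddit4 (0.86), Actb (0.86) and Glb1l (0.85). The best correlations of the other 4 genes were lower, from 0.67 for Igfbp6 with Ccdc80 to 0.74 for Igfbp4 with Atp1b3. For Igf1 the first was Clta (0.73), and for Igf2 it was the metallothionein gene Mt2 (0.73).

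**Figure D5:**
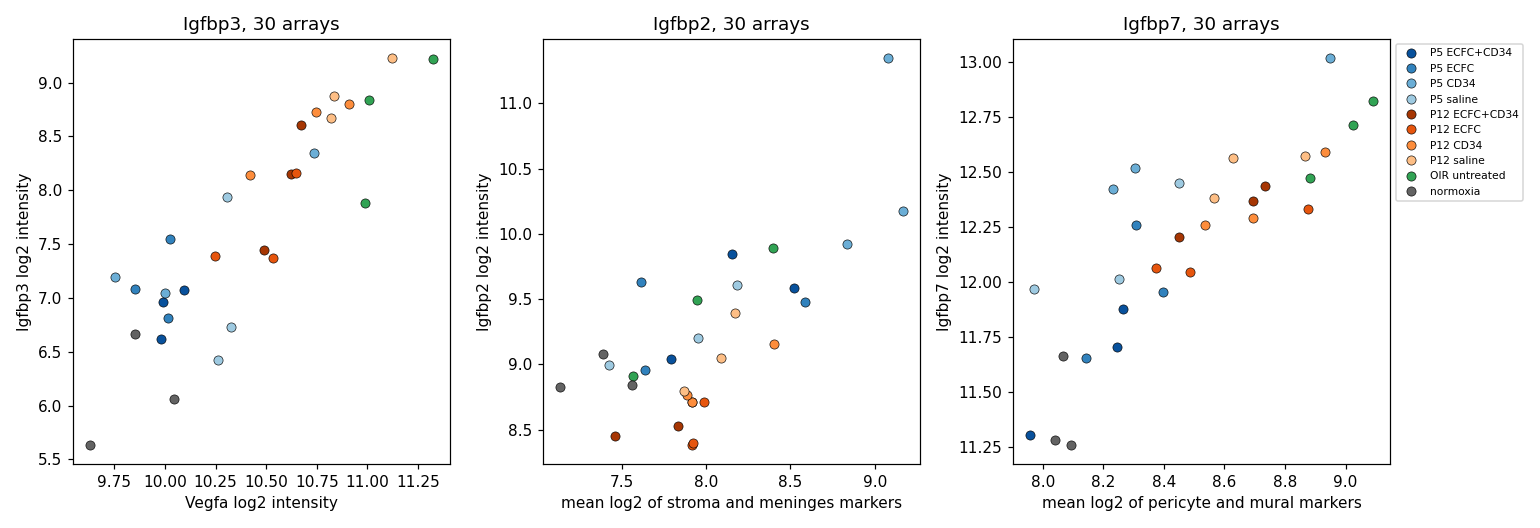
Log2 intensity over 30 arrays, coloured by group: Igfbp3 against Vegfa (left), Igfbp2 against the mean of the stroma and meninges markers (middle) and Igfbp7 against the mean of the pericyte and mural markers (right). Pearson correlations are 0.88, 0.73 and 0.84, and P5 CD34 replicate 1 is the highest Igfbp2 array at 11.35.

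The rest of the pathway was followed in lists of genes drawn from textbook knowledge. For OIR untreated against normoxia retinas, 0 of 14 receptors and adaptors and 0 of 17 measured genes of the PI3K, Akt and mTOR arm were called, where 4.56% of all genes were. Of 14 measured IGFBP proteases and their inhibitors, 2 were called higher, where 3.59% of all genes were, and 1 lower. Stc2 rose by 2.51 ± 0.24 (adjusted p = 9.7e-07), the plasminogen activator gene Plat by 1.22 ± 0.32 (adjusted p = 0.029), and the matrix protease gene Mmp7 fell by 0.55 ± 0.14 (adjusted p = 0.023), all in limma. Of 11 genes for proteins with an IGFBP-like domain, the tip cell gene Esm1 rose by 4.41 ± 0.48 (adjusted p = 3.6e-06) and the matrix gene Ccn1 by 1.45 ± 0.35 (adjusted p = 0.015), both in limma. Of 10 measured imprinted growth genes, Dlk1 rose by 0.82 ± 0.22 (adjusted p = 0.030) and Peg3 fell by 0.50 ± 0.11 (adjusted p = 0.0052), both in limma.

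Stc2 and Esm1 were lower in P5 saline than in OIR untreated retinas too. Stc2 fell by 1.60 ± 0.24 (adjusted p = 0.00044) and Esm1 fell by 3.90 ± 0.48 (adjusted p = 9.9e-05), both in limma. From the same lists Stc1, Ccn1 and Ccn4 were also called lower, where 4.88% of all genes were called lower. Called higher were Adam28, by 0.87 ± 0.27 (adjusted p = 0.045), and Crim1, by 0.73 ± 0.20 (adjusted p = 0.023), both in limma. The insulin receptor gene Insr fell by 0.43 ± 0.11 (adjusted p = 0.018 in limma), the 1 of 14 receptors and adaptors called there, where 8.69% of all genes were called.

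For P12 saline against OIR untreated retinas, 2 of 14 receptors and adaptors were called higher and 2 lower, where 21.3% of all genes were called. The adaptor genes Grb10 and Sos1 rose by 0.50 ± 0.08 (adjusted p = 9.9e-05) and 0.68 ± 0.12 (adjusted p = 0.00024), whereas Irs2 fell by 0.67 ± 0.11 (adjusted p = 0.00018), all in limma. In the PI3K, Akt and mTOR arm 1 of 17 was called higher and 3 lower, against the same 21.3%. Both lists were thus called at about the share of all genes. The regulatory subunit gene Pik3r2 fell by 1.35 ± 0.13 (adjusted p = 6.1e-07) and Akt1 by 0.84 ± 0.16 (adjusted p = 0.00080), both in limma. Rictor rose by 0.69 ± 0.13 (adjusted p = 0.00047) and Bad fell by 0.54 ± 0.11 (adjusted p = 0.0012), both in limma. Hybridisation controls differed between these groups as given above, and their part was not tested.

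For P5 CD34 against P5 saline retinas, 1 of 14 receptors and adaptors was called, where 8.46% of all genes were, namely the cytokine signalling suppressor gene Socs2, which fell by 0.72 ± 0.15 (adjusted p = 0.0059 in limma). None of the 14 proteases and inhibitors was called. In the PI3K, Akt and mTOR arm the translation repressor gene Eif4ebp1 rose by 0.76 ± 0.21 (adjusted p = 0.024) and the kinase gene Gsk3b fell by 0.53 ± 0.11 (adjusted p = 0.0046), both in limma. Of the proteins with an IGFBP-like domain, Ccn1 rose by 1.33 ± 0.35 (adjusted p = 0.020) and Ccn4 by 0.40 ± 0.11 (adjusted p = 0.024), both in limma.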

How the data were processed

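Retinal RNA was measured on 30 arrays, 10 groups of 3 pups. Per the labels' protocols, 100 ng of total RNA was amplified and biotin-labelled. The deposited table gives log2 intensities of 22690 probe sets, made by the authors with Partek (no version named), per the submitters' processing notes. How probes were background-corrected, summarised and normalized, and on which genome build, is not given in the sources used. These log2 values were analysed as deposited, with groups per the labels.

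By the platform annotation, 20380 probe sets carried 1 gene symbol, 691 carried several, 1555 carried none and 64 were controls. Per symbol the set of the highest mean was kept, which left 12393 genes, among them the 9 IGF genes. The members, gene lists and tests were chosen with earlier results of these data known, so p-values of the members are not independent of that choice.

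The tests used limma (version 3.58.1, R version 4.3.3). A model with 10 group means was fitted to the 30 arrays, leaving 20 residual degrees of freedom, and 23 contrasts were tested two-sided with eBayes and Benjamini-Hochberg adjustment over all genes of a contrast. A call is an adjusted p under 0.05. All errors of differences are SE. The labels give 1 retina per pup and no litters, so p-values measure the spread between these samples. On simulated data for OIR untreated against normoxia over 12393 genes, 32.8% of genes changed by 0.5, 88.1% changed by 1 and 100% changed by 2 on the log2 scale were called. There 11 unchanged genes were called too. The simulation gave each gene 1 normal spread shared by all groups, whereas the real groups differed in spread.

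Named genes were all 9 members, up to 4 called genes per pathway list and comparison by smallest adjusted p, the 3 genes most correlated with each member, and Vegfa. A part of these is printed. Igfbp1 was named for its place beside Igfbp3, after its values were seen. Promoter sequences are from RefSeq (GRCm38.p6). Replicate numbers did not pair samples: over 18 comparisons correlations of same-numbered arrays' deviations ran from -0.45 to 0.55, and in 0 comparisons did every pair exceed 0.1. Alternatives changed the normalization, the probe set rule, the filter on dim genes, the variance model, array weights, the block, the arrays in the fit and covariates, and left out single arrays.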

Additional observations from a re-analysis of the deposited data

How the results depend on the processing

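Of 23 gene differences called, 0 changed direction in 387 alternative fits, 60 of which no longer passed, and 7 passed in all of theirs: Igfbp3, Igfbp5 and Igfbp7 for OIR untreated and P12 saline against normoxia, and Igf1r for P12 saline against normoxia. For OIR untreated against normoxia every alternative called 3 of 9 genes, and for P12 saline against normoxia 4 or 5. The cause of the changes below was not tested. Fits with array weights gave P12 ECFC replicate 3 most of the weight in its group.

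With array weights the number of the 9 genes called was 4 for P12 ECFC against saline, against 0 as reported, 1 for P12 ECFC against P12 CD34 (0), 3 for the CD34 effect at P5 minus P12 (0; Igf1, Igfbp2 and Igfbp5), 1 for the ECFC effect (0; Igfbp3), 1 for the P5 combination minus the sum (0; Igf1) and 2 for P12 saline against OIR untreated (1; Igf1r added). With the hybridisation control covariate it was 2 for the CD34 effect and 2 for the P5 combination minus the sum (Igfbp2 and Igfbp5), 2 for the ECFC effect (Igfbp3 and Igfbp5), 1 for P5 ECFC against P5 saline (Igfbp5) and 3 for P12 saline against OIR untreated (Igf1 and Igfbp5 added). Fits on only the groups compared gave 2 for P12 saline against OIR untreated (Igf2 added), and 0 for P5 CD34 against saline, for P5 ECFC and for the P5 combination against P5 CD34, and for P5 saline against normoxia and against OIR untreated. With the lens covariate P5 saline had 0 called against normoxia, 1 against OIR untreated and 1 against P12 saline, Igfbp7 in both. Median centring gave 0 for P12 saline against OIR untreated, as did leaving out the dimmest 30% of genes, which removes Igfbp6. The mean of a gene's probe sets gave 0 for P5 saline against normoxia, and trend and robust eBayes gave 1 for P5 saline against OIR untreated.

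With the replicate number as a block, P5 saline against OIR untreated had 1 gene called, Igfbp3, against 2 without it, since Igfbp5 gave an adjusted p of 0.059. The block changed no other count by more than 1.5 times, and the numbers do not pair the samples.

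Leaving out 1 array at a time, the count ran from 0 to 1 for the CD34 effect, 0 to 1 for P12 saline against OIR untreated, 1 to 5 for P5 CD34 against saline, 1 to 3 for the P5 combination and 0 to 3 for P5 ECFC against P5 CD34, 0 to 1 for P5 saline against normoxia, and 0 to 3 for P5 saline against OIR untreated.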
